A study of Mus musculus with 6 samples.

Results

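The genes described here encode the molecular chaperones of the cell: heat shock proteins, their J-domain and BAG co-chaperones, the subunits of the cytosolic chaperonin, and the folding enzymes and lectins of the endoplasmic reticulum. They were taken by gene symbol, as every probe set that the platform annotation gives a single symbol starting with Hsp (except Hspg2), Dnaj or Pdia, or with Cct or Bag and a digit, together with Tcp1, Hsf1, Hsf2, Stip1, St13, Canx, Calr and P4hb. This gave 104 probe sets of 12488 on the array, for 70 of 8251 genes. Each gene was read by its brightest probe set, and 62 of the 70 genes had a mean signal above the filter of 150.1 and were tested. No probe set with the single symbol Hsf1 or Hsp90ab1 was found, so neither gene was analysed here. Transcript levels were measured on Affymetrix mouse arrays in the livers of 3 Rb null and 3 wild type embryos at 12.5 days of development, 6 in all. The embryos came from matings of 129sv mice heterozygous for Rb, and neither the Rb allele nor the sex of the embryos is given in the sources used here. The livers were untreated, were dissected and dispersed in saline, and had their RNA extracted with Trizol. Each array held 1 embryo, so n = 3 per genotype throughout.

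Chaperones bind unfolded protein chains and help them to fold. Hsp70 proteins do so in cycles of ATP hydrolysis that J proteins start and nucleotide exchange factors, among them the BAG proteins and the Hsp110 proteins, bring to an end. Hsp90 proteins finish the folding of kinases and receptors, and the chaperonin, a double ring of Tcp1 and Cct subunits, folds actin and tubulin. Some of these genes are expressed in every cell, whereas others are switched on by heat shock factor 1 when unfolded proteins accumulate in the cytosol. In the endoplasmic reticulum a separate set, led by the Hsp70 protein Hspa5, is switched on by the unfolded protein response. In red cell precursors, which fill the fetal liver at this age, the inducible Hsp70 is known from human cells to protect the transcription factor GATA1.

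The gene named in the genotype was checked first. The brighter Rb1 probe set read 139, 142 and 127 signal units in Rb null livers, against 791, 754 and 706 in wild type livers, and the groups were far apart. Arrays had 2% trimmed means within 500.2 to 500.3 and correlated across probe sets at r of 0.982 to 0.988 within a genotype. Liver and red cell markers were bright, with Alb at 13754 ± 258 in Rb null livers, against 15834 ± 825 in wild type livers (SD, n = 3 each). Levels are MAS5 signals, and log2 fold changes are Rb null minus wild type, with their SE, computed on log2(signal + 50.02), which understates the change of dim genes. A gene was called at an adjusted p below 0.05 in limma, adjusted over all 6793 tested probe sets.

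Rb null livers had more of the inducible Hsp70 transcripts Hspa1a and Hspa1b and of several chaperones of the endoplasmic reticulum, and less of some cytosolic chaperones, namely Hspa8, Hsph1, J proteins and chaperonin subunits. In all, 7 of 62 tested chaperone genes (11.3%) rose and 11 (17.7%) fell, while 44 did not pass. Over all 5273 tested genes, 13.1% rose and 9.50% fell, 22.6% in all. The median log2 fold change was -0.04 over the chaperone genes and 0.02 over all tested genes. Scaling the arrays to equal medians shifted the median of all genes to -0.10 and gave 4 higher and 21 lower chaperone genes, with 16.0% of the calls higher against 38.9% on the deposited scale. Leaving out single embryos gave between 4 and 7 higher and between 7 and 10 lower genes. The fewest were 4 higher and 7 lower without Rb null embryo 1 or without wild type embryo 3, and without wild type embryo 2 there were 4 higher and 8 lower. The 3 Rb null values all lay above the 3 wild type values for 11 of the tested chaperone genes and all below for 17, against 23.5% and 17.6% of all tested genes. In whole livers, fewer cells of a type and less RNA per cell cannot be told apart.

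**Figure D1:**
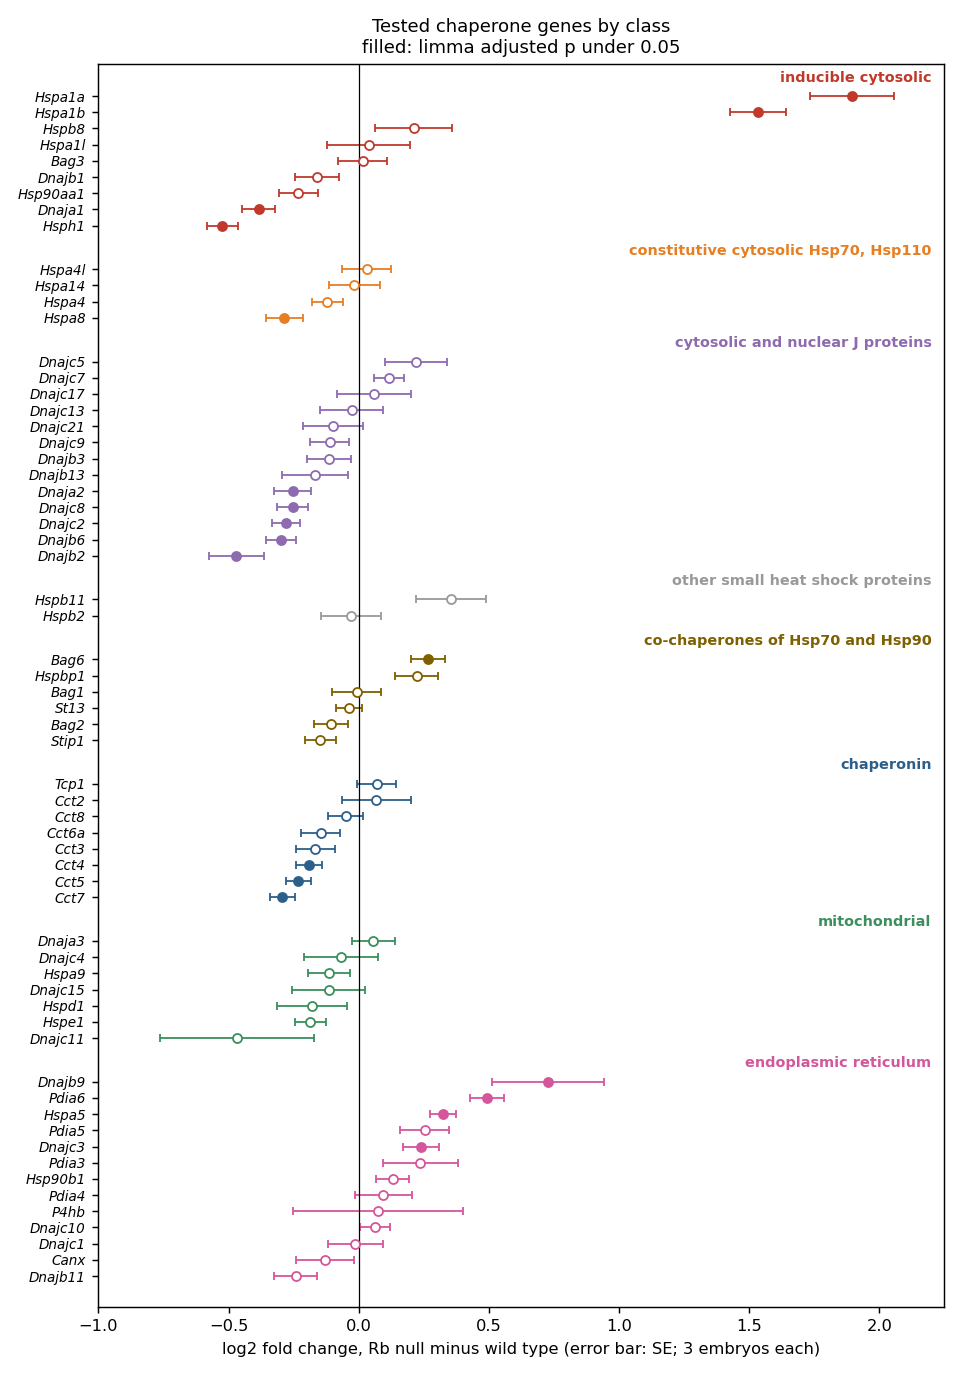
Log2 fold change (Rb null minus wild type, horizontal axis) of each of the 62 tested chaperone genes, grouped by class, with SE bars from 3 embryos per genotype; filled points are the 18 genes past an adjusted p of 0.05. Hspa1a and Hspa1b stand at the far right, the called genes of the endoplasmic reticulum lie to the right of 0, and those of the chaperonin and the J proteins to the left.

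Of 9 tested genes classed as stress-inducible chaperones of the cytosol, 2 rose and 2 fell, against 13.1% and 9.50% of all genes. The class includes the mostly testicular Hspa1l. Members of the class did not move together (median 0.02, range -0.52 to 1.90). Hspa1a, which encodes the inducible Hsp70, read 364, 389 and 335 in Rb null livers, against 68.4, 37.5 and 81.3 in wild type livers. Every Rb null value lay far above every wild type value, and the gene rose by 1.90 ± 0.16 on the log2 scale, or 3.72-fold (adjusted p = 0.0003). Its near-identical neighbour Hspa1b read 373, 399.7 and 412 in Rb null livers, against 120.3, 97.1 and 94.3 in wild type livers (1.53 ± 0.11, 2.90-fold, adjusted p = 0.00015). The wild type means of 62.4 and 104 lay below the signal filter, so the sizes of these rises are uncertain. Every wild type value lay below the filter too, so both genes passed it only through their high Rb null values. With other scalings, offsets and left-out embryos the rises ran from 1.27 to 2.41 for Hspa1a and from 1.10 to 1.84 for Hspa1b. No alternative in which they were tested, the run with no filter among them, ended either call. The stricter filter left both genes untested. Because the genes share most of their sequence, the probe sets may each read both transcripts. Hspa1l, the neighbouring and mostly testicular Hsp70 gene of the same cluster on chromosome 17, was dim and its groups overlapped, at 175 ± 34.5 in Rb null livers, against 169 ± 32.1 in wild type livers (0.04 ± 0.16).

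Of the other 7 tested genes of this class, 2 fell and 5 did not pass. Hsph1, the inducible Hsp110 that acts as exchange factor for Hsp70, read 2421, 2672 and 2706 in Rb null livers, against 3647, 3843 and 3776 in wild type livers. The groups were clear of each other, and Hsph1 fell by 0.52 ± 0.06 on the log2 scale (adjusted p = 0.00094), the largest fall among the tested chaperone genes. Dnaja1, a J protein that partners Hsp70 in the cytosol, read 1983, 1830.0 and 2136 in Rb null livers, against 2595, 2611 and 2589 in wild type livers. It fell by 0.38 ± 0.06 (adjusted p = 0.0052), and both calls held under every alternative that was run. Hsp90aa1, the inducible Hsp90, read 7654 ± 343 in Rb null livers, against 9026 ± 865 in wild type livers. Its groups did not overlap, but the difference of -0.23 ± 0.07 did not pass (adjusted p = 0.058). It did pass after median scaling (adjusted p = 0.0074), with the stricter filter of 500.2 (adjusted p = 0.049) and without wild type embryo 1 (adjusted p = 0.031), whereas quantile and cyclic loess normalization each brought it to -0.04. Dnajb1, the main inducible J protein, read 834 ± 79.3 in Rb null livers, against 937 ± 61.5 in wild type livers (-0.16 ± 0.09, adjusted p = 0.22). Bag3, an exchange factor that links Hsp70 to autophagy, read 413 ± 37.7 in Rb null livers, against 407 ± 31.5 in wild type livers on its brightest probe set (0.02 ± 0.09). Another Bag3 probe set read 345 ± 40.6 in Rb null livers, against 243 ± 56.0 in wild type livers, with no overlap of the groups and no call (0.44 ± 0.15, adjusted p = 0.071). The small heat shock protein gene Hspb8 was close to the filter and overlapped (0.21 ± 0.15), and Hspb1, Dnajb4 and Dnajb5 stayed below it in both genotypes. Hspb1, which encodes the main inducible small heat shock protein, had means of 35.2 ± 20.5 in Rb null livers, against 16.7 ± 16.9 in wild type livers.

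**Figure D2:**
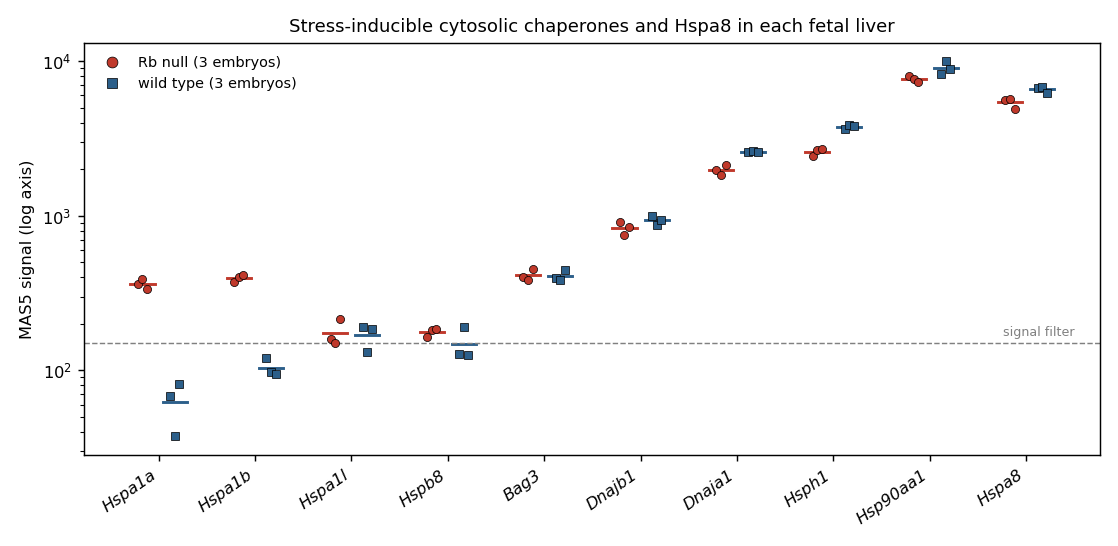
MAS5 signal is shown on a log axis for 9 genes classed as inducible cytosolic chaperones and for the constitutive Hspa8. Circles are 3 Rb null livers and squares are 3 wild type livers. Short lines are means and the dashed line is the signal filter. Hspa1a and Hspa1b sit above the filter only in Rb null livers, whereas Dnaja1, Hsph1, Hsp90aa1 and Hspa8 are lower in Rb null livers.

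Early response genes, which handling of tissue is known to induce within minutes, were read beside the inducible chaperones. Of 14 tested, 4 rose and none fell, against 13.1% and 9.50% of all genes. Atf3 read 339, 312.5 and 353 in Rb null livers, against 160, 175 and 162 in wild type livers (0.83 ± 0.10, adjusted p = 0.001). Ier3 (0.80 ± 0.09, adjusted p = 0.00099), Ier2 (0.40 ± 0.07, adjusted p = 0.0046) and Klf6 (0.39 ± 0.12, adjusted p = 0.048) were the others. Fos, named here after its values were seen, was below the filter, at 178 ± 32.6 in Rb null livers, against 90.1 ± 9.22 in wild type livers. The summed signal of the list overlapped, from 11929 to 12551 in Rb null livers and from 11218 to 12026 in wild type livers. Its brightest member, Jund, did not pass, at 4132 ± 479 in Rb null livers, against 4399 ± 245 in wild type livers. The median log2 fold change of the 14 tested genes was 0.27. The count was 6 higher without wild type embryo 2, and 3 higher and 1 lower without wild type embryo 3. The part of handling in the rise of Hspa1a and Hspa1b was not tested.

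The promoters of the called inducible genes were compared because these genes moved in opposite directions while all are known targets of heat shock factor 1. The windows run from 250 bases before to 50 bases after a transcript start and are RefSeq sequences of build GRCm38.p6, written from 5′ to 3′ on the gene's own strand. Capitals mark a pair of inverted heat shock units, searched in both of its orders, GAANNTTC and TTCNNGAA. Each string is its own reverse complement, so a search of the written strand covers both strands. Overlapping matches run together.
Hspa1a, chr17:34972107-34972406, minus strand: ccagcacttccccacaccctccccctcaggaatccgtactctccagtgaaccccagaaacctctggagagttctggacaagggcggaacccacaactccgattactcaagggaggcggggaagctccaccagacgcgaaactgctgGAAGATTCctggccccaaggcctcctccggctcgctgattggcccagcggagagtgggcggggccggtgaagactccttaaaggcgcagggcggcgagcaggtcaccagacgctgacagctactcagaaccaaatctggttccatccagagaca
Hspa1b, chr17:34959189-34959488, minus strand: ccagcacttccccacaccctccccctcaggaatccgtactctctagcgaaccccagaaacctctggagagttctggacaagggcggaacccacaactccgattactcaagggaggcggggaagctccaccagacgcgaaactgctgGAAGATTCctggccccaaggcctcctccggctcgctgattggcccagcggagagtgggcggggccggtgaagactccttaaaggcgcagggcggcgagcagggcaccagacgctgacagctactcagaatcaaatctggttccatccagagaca
Hsph1, chr5:149636287-149636586, minus strand: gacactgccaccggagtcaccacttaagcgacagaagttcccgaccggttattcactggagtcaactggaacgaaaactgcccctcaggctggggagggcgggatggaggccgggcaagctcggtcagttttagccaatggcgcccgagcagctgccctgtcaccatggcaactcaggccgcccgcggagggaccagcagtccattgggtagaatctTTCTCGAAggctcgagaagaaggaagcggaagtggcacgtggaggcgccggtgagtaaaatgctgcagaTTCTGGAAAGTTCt
Dnaja1, chr4:40722218-40722517, plus strand: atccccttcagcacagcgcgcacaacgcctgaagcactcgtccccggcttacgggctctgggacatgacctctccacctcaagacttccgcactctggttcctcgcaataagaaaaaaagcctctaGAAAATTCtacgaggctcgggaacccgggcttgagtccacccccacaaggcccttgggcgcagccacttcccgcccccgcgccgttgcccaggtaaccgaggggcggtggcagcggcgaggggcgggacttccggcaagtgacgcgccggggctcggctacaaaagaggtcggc
The Hspa1a and Hspa1b windows differed at 4 of 300 positions when set base by base, and each held 1 match, which began 104 bases before the start. The Hsph1 window held 3 matches, 1 that began 33 bases before the start and 2 overlapping ones that began 36 and 41 bases after it. In Dnaja1, 1 of 3 annotated windows held a match, 124 bases before the start. A match was thus found both in the genes that rose and in those that fell. Of 11 genes of the inducible cytosolic class with a window in the table, 8 held a match, as did 17.0% of all 27025 genes in it. Such a match is a string of letters and not a measured binding site.

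Of the constitutive cytosolic Hsp70 and Hsp110 genes, 1 of 4 tested fell, against 9.50% of all genes, and the others did not pass. Hspa8, which encodes the constitutive Hsp70 that folds nascent chains and strips clathrin from vesicles, read 5615, 5716 and 4892 in Rb null livers, against 6706, 6816 and 6249 in wild type livers. It fell by 0.29 ± 0.07 (adjusted p = 0.025). Hspa8 was therefore lower in the same livers in which the inducible Hsp70 genes were higher. The Hspa8 call ended after quantile (-0.12, adjusted p = 0.38) and cyclic loess normalization (-0.13, adjusted p = 0.33), with no filter (adjusted p = 0.057) and with no intensity trend (adjusted p = 0.053). On dropping Rb null embryo 1, wild type embryo 1 or wild type embryo 2 in turn, the adjusted p became 0.052, 0.068 and 0.071. Hspa4, an Hsp110 exchange factor, had values below 0 on all 4 tested probe sets without a call (brightest, -0.12 ± 0.06, adjusted p = 0.19), and Hspa4l (0.03 ± 0.09) and the ribosome-associated Hspa14 (-0.02 ± 0.10) overlapped between genotypes. Hspa2, the Hsp70 of male germ cells, was below the filter, with means of 13.7 in Rb null livers, against 12.2 in wild type livers.

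J proteins of the cytosol and nucleus were lower where they changed. Of 13 tested, 5 fell, none rose (background 9.50% lower and 13.1% higher), and 8 did not pass (median -0.11). Dnajb2 read 394, 485 and 421 in Rb null livers, against 592, 566 and 701 in wild type livers, and this J protein, which passes Hsp70 clients to the proteasome, fell by 0.47 ± 0.11 (adjusted p = 0.017). Dnajb6, known for holding back protein aggregation, read 2149, 2395 and 2295 in Rb null livers, against 2776, 2774 and 2884 in wild type livers (-0.30 ± 0.06, adjusted p = 0.0091). Its dimmer probe set overlapped between genotypes (-0.07 ± 0.09), and the mean of both did not pass (-0.19, adjusted p = 0.066). Dnajc2, which works with Hspa14 at the ribosome exit, read 1167, 1185 and 1151 in Rb null livers, against 1409, 1414 and 1461 in wild type livers. It fell on both of its probe sets (-0.28 ± 0.05, adjusted p = 0.0089, and -0.24 ± 0.06, adjusted p = 0.022), and this call held under every alternative that was run.

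The remaining falls among these J proteins were less stable. Dnajc8, a nuclear J protein associated with splicing, read 4728, 4348 and 4647 in Rb null livers, against 5207, 5766 and 5417 in wild type livers (-0.25 ± 0.06, adjusted p = 0.019). Its dimmer probe set also lay lower in all Rb null livers, without a call (-0.35 ± 0.12, adjusted p = 0.072). Both have a suffix letter, so Dnajc8 was not tested when such probe sets were excluded. The Dnajc8 call ended after quantile (-0.13, adjusted p = 0.11) and cyclic loess normalization (-0.11, adjusted p = 0.16). Dropping Rb null embryo 2, wild type embryo 2 or wild type embryo 3 ended it too, at adjusted p of 0.062, 0.059 and 0.055. Dnaja2, a relative of Dnaja1, read 522 ± 23.1 in Rb null livers, against 631 ± 22.9 in wild type livers (-0.25 ± 0.07, adjusted p = 0.038), and dropping any of the 6 embryos ended its call (adjusted p from 0.064 to 0.11), as did using no filter (adjusted p = 0.053) or the replicate block (adjusted p = 0.054). For Dnajb2, dropping Rb null embryo 1 gave an adjusted p of 0.062, and dropping wild type embryo 3 gave 0.054. Without wild type embryo 3, the count of J proteins that fell was 2, and it was 3 without Rb null embryo 1, Rb null embryo 2 or wild type embryo 2. Of the members that did not pass, Dnajc7, which carries clients between Hsp70 and Hsp90, lay higher in all Rb null livers (0.12 ± 0.06, adjusted p = 0.18). Dnajc5, a J protein of secretory vesicles (0.22 ± 0.12), and the histone chaperone gene Dnajc9 (-0.11 ± 0.07) overlapped between genotypes. Dnajb3 (-0.11 ± 0.08) lay lower in all Rb null livers, whereas Dnajb13 (-0.17 ± 0.13), Dnajc13 (-0.03 ± 0.12), Dnajc17 (0.06 ± 0.14) and Dnajc21 (-0.10 ± 0.12) overlapped, and Dnajb8 was below the filter.

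Of 6 tested co-chaperones of Hsp70 and Hsp90, 1 rose and none fell, against 13.1% and 9.50% of all genes (median -0.02). Bag6, which guards newly made membrane proteins in the cytosol, read 913, 868 and 969 in Rb null livers, against 761, 739 and 759 in wild type livers. It was the called gene (0.27 ± 0.07, adjusted p = 0.023), and its 3 other probe sets had values above 0 without passing (0.16 to 0.36, adjusted p from 0.059 to 0.18). Quantile normalization (0.23, adjusted p = 0.053), median scaling (0.14, adjusted p = 0.21) and the exclusion of probe sets with a suffix letter (0.25, adjusted p = 0.052) each ended the Bag6 call. So did dropping any embryo other than Rb null embryo 2 (adjusted p from 0.058 to 0.066). Stip1, the adaptor between Hsp70 and Hsp90, read 1223 ± 66.1 in Rb null livers, against 1359 ± 21.3 in wild type livers, with no overlap and no call (-0.15 ± 0.06, adjusted p = 0.12). St13, which holds Hsp70 in its client-bound state, read 1843 ± 16.6 in Rb null livers, against 1896 ± 44.4 in wild type livers (-0.04 ± 0.05, adjusted p = 0.63). A dimmer St13 probe set had a value above 0, and its groups overlapped (0.16 ± 0.11, adjusted p = 0.33). Hspbp1, an exchange factor, lay higher in all Rb null livers (0.22 ± 0.08, adjusted p = 0.093), while the exchange factor gene Bag2 overlapped (-0.11 ± 0.07). Bag1, another exchange factor, read 717 ± 60.5 in Rb null livers, against 722 ± 74.0 in wild type livers (-0.01 ± 0.09, adjusted p = 0.96). Of 2 other tested genes, grouped by symbols that start with Hspb, Hspb11 lay higher in all Rb null livers (0.35 ± 0.13, adjusted p = 0.096) and Hspb2 overlapped (-0.03 ± 0.12). Hsf2, a heat shock factor, was below the filter, at 53.6 ± 6.15 in Rb null livers, against 37.2 ± 14.9 in wild type livers.

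Further partners of Hsp70 and Hsp90 were read from a separate list of 15 genes, of which 11 were tested. Here 2 fell and 1 rose, against 9.50% and 13.1% of all genes. Chordc1, an Hsp90 partner that is itself heat inducible, read 1399, 1292 and 1512 in Rb null livers, against 1749, 1736 and 2028 in wild type livers (-0.38 ± 0.08, adjusted p = 0.015). Ppid, the cyclophilin of Hsp90 complexes, read 2103, 2246 and 2135 in Rb null livers, against 2750.4, 2712 and 2728 in wild type livers (-0.33 ± 0.05, adjusted p = 0.0035). Hsbp1, known as a binding protein and inhibitor of heat shock factor 1, read 705, 628 and 511 in Rb null livers, against 386, 474 and 423 in wild type livers (0.47 ± 0.12, adjusted p = 0.029). The groups of these 3 genes did not overlap. Hsbp1 did not pass after any of the 3 other scalings, with no filter, or without Rb null embryo 1, Rb null embryo 2, wild type embryo 1 or wild type embryo 3. Without Rb null embryo 2, 1 gene of the list fell.

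The cytosolic chaperonin was lower by small amounts in part of its subunits. Of 8 tested genes 3 fell and none rose (median -0.16), beside a background of 9.50% lower and 13.1% higher. However, 5 of the 8, including all 3 that fell, were among the 1319 brightest tested genes, of which 24.6% fell and 8.57% rose. Cct7 read 3998, 3929.5 and 3958 in Rb null livers, against 5037, 4698 and 4872 in wild type livers (-0.29 ± 0.05, adjusted p = 0.0052). Cct5 read 4736, 4528 and 4441 in Rb null livers, against 5329, 5399 and 5391 in wild type livers (-0.23 ± 0.05, adjusted p = 0.013). A dimmer Cct5 probe set also lay lower in all Rb null livers, without a call (-0.21 ± 0.08, adjusted p = 0.086). Cct4 read 4351, 4252 and 4248 in Rb null livers, against 4845, 4760.2 and 5101 in wild type livers (-0.19 ± 0.05, adjusted p = 0.028). In each of the 3 genes all Rb null livers lay below all wild type livers. The Cct7 call held under every alternative run, with values from -0.43 to -0.16. The Cct5 call ended after quantile (-0.10, adjusted p = 0.19) and cyclic loess normalization (-0.09, adjusted p = 0.22), as did the Cct4 call (-0.08, adjusted p = 0.26, and -0.06, adjusted p = 0.39). The Cct4 call also ended with no filter (adjusted p = 0.052), with no intensity trend (adjusted p = 0.073) and on dropping any embryo other than wild type embryo 2 (adjusted p from 0.061 to 0.10). The count of subunits that fell was 1 after quantile or cyclic loess normalization and 6 after median scaling, and it was 2 without Rb null embryo 1 or 2 or wild type embryo 1 or 3.

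The other subunits of the same ring did not pass. Tcp1 read 461 ± 16.6 in Rb null livers, against 438 ± 19.5 in wild type livers (0.07 ± 0.08, adjusted p = 0.57), and Cct2 (0.07 ± 0.13), Cct8 (-0.05 ± 0.07) and Cct6a (-0.15 ± 0.08) overlapped between genotypes. Cct3 gave conflicting probe sets. Its brightest read 1968 ± 195 in Rb null livers, against 2209 ± 52.4 in wild type livers (-0.17 ± 0.07, adjusted p = 0.15), whereas a dimmer probe set, whose suffix letter s marks probes that may bind several transcripts, read 1037 ± 133 in Rb null livers, against 538 ± 40.6 in wild type livers (0.88 ± 0.10, adjusted p = 0.001). The mean of the Cct3 probe sets was 0.32, so no direction can be given for this subunit, whose remaining probe set overlapped (0.24 ± 0.34). Cct6b, a testis form, stayed below the filter. Prefoldin, which hands actin and tubulin chains to the chaperonin, was read from a separate list together with the chaperonin cofactor genes Pdcl3 and Txndc9. Of 5 tested genes 2 fell, against 9.50% of all genes, Vbp1 (-0.22 ± 0.06, adjusted p = 0.039) and Pfdn6 (-0.19 ± 0.05, adjusted p = 0.037), but neither passed after quantile or cyclic loess normalization, with no filter, with no intensity trend, or without Rb null embryo 1 or 3 or wild type embryo 1 or 3.

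**Figure D3:**
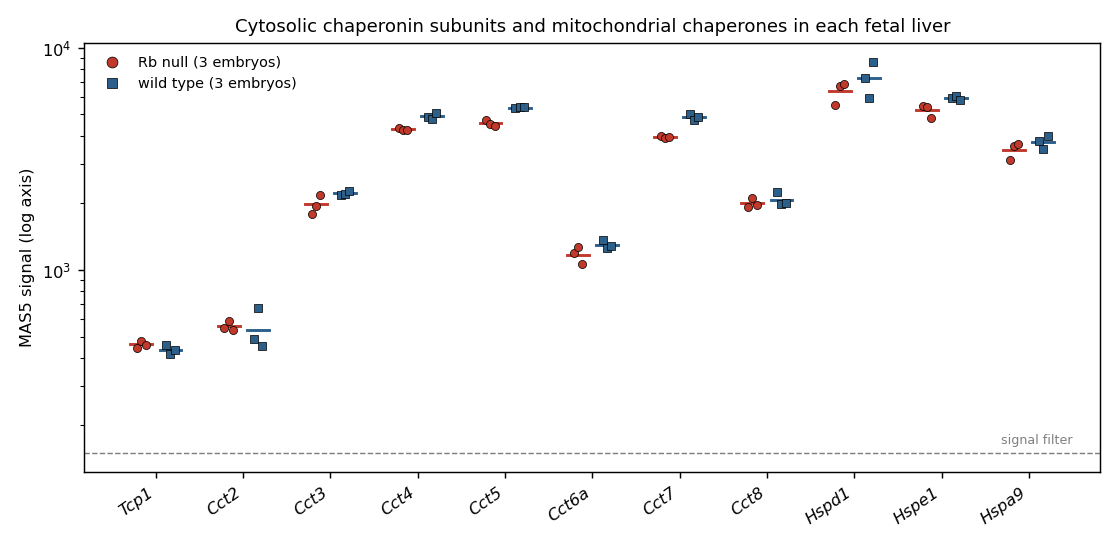
MAS5 signal on a log axis for 8 chaperonin subunits and 3 mitochondrial chaperones in each of 3 Rb null (circles) and 3 wild type (squares) livers; short lines are means. Cct4, Cct5 and Cct7 are lower in all Rb null livers, while Tcp1 and Cct2 overlap.

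None of 7 tested mitochondrial chaperone genes was called by limma, against 22.6% of all tested genes called in either direction. Of the 7, 1 gene, Hspe1, had an unadjusted p below 0.05. The median of the class was -0.12. Hspd1, the chaperonin of the mitochondrial matrix, read 5519, 6734 and 6859 in Rb null livers, against 7306, 5927 and 8589.9 in wild type livers (-0.18 ± 0.14, adjusted p = 0.38). Its lid Hspe1 read 5435, 5399.5 and 4814 in Rb null livers, against 5942, 6059 and 5802 in wild type livers (-0.19 ± 0.06, adjusted p = 0.059). The Hspd1 groups overlapped and the Hspe1 groups did not. Hspe1 passed after median scaling (adjusted p = 0.0064), with the stricter filter (adjusted p = 0.048) and with the replicate block (adjusted p = 0.049), but was at -0.05 after quantile and -0.03 after cyclic loess normalization. Hspd1 and Hspe1 are divergent neighbours on chromosome 1, and their promoter windows on opposite strands share 285 bases with 3 heat shock unit pairs. Hspa9, the mitochondrial Hsp70, read 3476 ± 322 in Rb null livers, against 3764 ± 254 in wild type livers (-0.12 ± 0.08, adjusted p = 0.35), and its J protein Dnaja3 read 1605 ± 64.5 in Rb null livers, against 1548 ± 167 in wild type livers (0.05 ± 0.08). The other mitochondrial J protein genes were dim and overlapped, namely Dnajc11 (-0.47 ± 0.30, adjusted p = 0.30), Dnajc15 (-0.12 ± 0.14) and Dnajc4 (-0.07 ± 0.14). Among 9 tested genes of mitochondrial folding and proteolysis, 1 fell and none rose, a share near the 9.50% of all genes that fell. It was Grpel1, the exchange factor of Hspa9, at 833 ± 23.9 in Rb null livers, against 960.0 ± 13.3 in wild type livers (-0.19 ± 0.06, adjusted p = 0.048). The count that fell on this list ran from 0 to 5 over the alternatives, and it was 0 on dropping any embryo other than Rb null embryo 3.

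On the deposited scale, chaperones of the endoplasmic reticulum were higher where they changed. Of 13 tested, 4 rose and none fell, against 13.1% higher and 9.50% lower among all genes, and 9 did not pass (median 0.13). After quantile or cyclic loess normalization 3 rose and 1 fell. After median scaling 2 rose and 1 fell, with a median of 0. Hspa5, the Hsp70 protein also called BiP, read 4907, 4824 and 4654 in Rb null livers, against 3809, 3898 and 3757 in wild type livers. It rose by 0.32 ± 0.05 on the log2 scale, or 1.25-fold (adjusted p = 0.0032). Pdia6, a protein disulfide isomerase, read 1665, 1744 and 1779 in Rb null livers, against 1266, 1127 and 1251 in wild type livers (0.49 ± 0.06, 1.41-fold, adjusted p = 0.0018). In both genes the groups were clear of each other, and both calls held under every alternative that was run. A second Pdia6 probe set also rose (0.26 ± 0.06, adjusted p = 0.020), and the dimmest overlapped (0.15 ± 0.16).

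The J proteins of the endoplasmic reticulum differed among themselves. Dnajb9, an Hspa5 partner that feeds misfolded proteins to degradation, read 849.9, 1069.9 and 794 in Rb null livers, against 718, 354 and 555 in wild type livers (0.73 ± 0.22, 1.66-fold, adjusted p = 0.045). Its wild type embryos were widely spread. The call ended after each of the 3 other scalings (adjusted p from 0.058 to 0.070), with no filter (adjusted p = 0.095), with no intensity trend (adjusted p = 0.067) or under the replicate block (adjusted p = 0.064). Dropping any embryo other than wild type embryo 1 ended it as well (adjusted p from 0.060 to 0.15). A dimmer Dnajb9 probe set, which was below the filter and not tested, read 154 ± 14.0 in Rb null livers, against 89.7 ± 9.13 in wild type livers, again with no overlap. Dnajc3, an Hspa5 partner that also inhibits the kinase PERK, read 932, 938 and 848 in Rb null livers, against 792, 727 and 759.8 in wild type livers (0.24 ± 0.07, adjusted p = 0.041). A dimmer tested Dnajc3 probe set overlapped between genotypes (0.09 ± 0.13, adjusted p = 0.66). Below the filter, another lay higher in all Rb null livers and the dimmest overlapped. The Dnajc3 call was lost after each of the 3 other scalings (adjusted p from 0.062 to 0.31), with no filter (adjusted p = 0.060), with no intensity trend (adjusted p = 0.057), under the replicate block (adjusted p = 0.058) and when its probe sets were averaged (0.14, adjusted p = 0.36). Dropping any embryo other than Rb null embryo 3 ended it too (adjusted p from 0.066 to 0.12). With both calls lost, 2 genes of the compartment rose without Rb null embryo 1, Rb null embryo 2, wild type embryo 2 or wild type embryo 3. Dnajb11, another Hspa5 partner, lay lower in all Rb null livers without a call, at 433, 474 and 434 in Rb null livers, against 583, 510.4 and 520.0 in wild type livers (-0.24 ± 0.08, adjusted p = 0.070), and it passed as lower after each of the 3 other scalings (adjusted p from 0.016 to 0.030). Dnajc10, a reductase (0.06 ± 0.06), and Dnajc1 (-0.01 ± 0.10) overlapped.

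The remaining chaperones of this compartment did not pass. Hsp90b1, the Hsp90 of the endoplasmic reticulum, read 3731, 3725 and 3463 in Rb null livers, against 3122, 3538 and 3309.8 in wild type livers (0.13 ± 0.06, adjusted p = 0.18), but it passed after quantile (0.25, adjusted p = 0.041) and cyclic loess normalization (0.24, adjusted p = 0.035), while its adjusted p was 0.96 after median scaling. The disulfide isomerase Pdia5 lay higher in all Rb null livers (0.25 ± 0.09, adjusted p = 0.089). Its relatives Pdia3 (0.24 ± 0.14) and Pdia4 (0.09 ± 0.11) overlapped between genotypes. P4hb, the founding isomerase, was read by a probe set with large spread, at 605 ± 198 in Rb null livers, against 595 ± 254 in wild type livers (0.07 ± 0.33). A dimmer P4hb probe set read 169 ± 10.1 in Rb null livers, against 145 ± 21.4 in wild type livers. It lay higher in all Rb null livers, without a call (0.18 ± 0.12, adjusted p = 0.35). The lectin chaperone gene Canx read 568 ± 61.6 in Rb null livers, against 628 ± 84.2 in wild type livers (-0.13 ± 0.11). Its dimmer probe set had a value above 0, and the groups overlapped on both (0.09 ± 0.11). The probe set of Calr, the partner of Canx, was far below the filter, at 37.2 ± 3.72 in Rb null livers, against 42.1 ± 12.0 in wild type livers.

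**Figure D4:**
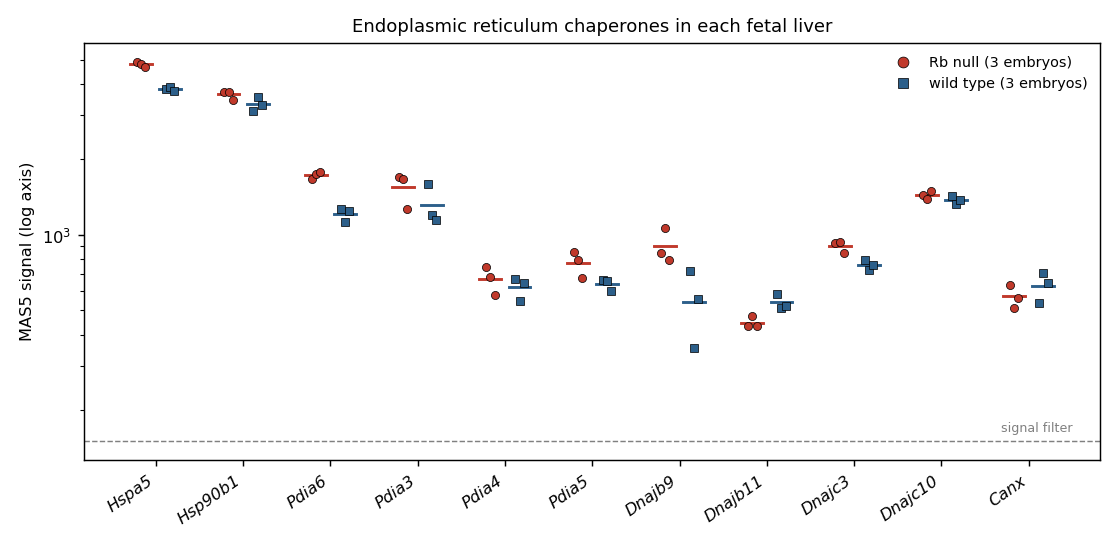
MAS5 signal on a log axis for 11 endoplasmic reticulum chaperone genes in each of 3 Rb null (circles) and 3 wild type (squares) livers; short lines are means. Hspa5 and Pdia6 are higher in all Rb null livers with a narrow spread, Dnajb9 is higher with a wide one, and Dnajb11 is lower.

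The promoters of the 2 genes whose rise held throughout were searched for the endoplasmic reticulum stress element, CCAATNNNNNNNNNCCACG or its reverse complement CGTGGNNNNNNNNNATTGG, which is known to bind ATF6 together with NF-Y. The RefSeq windows have the same build and extent as those above, and capitals mark the element.
Hspa5, chr2:34771840-34772139, plus strand: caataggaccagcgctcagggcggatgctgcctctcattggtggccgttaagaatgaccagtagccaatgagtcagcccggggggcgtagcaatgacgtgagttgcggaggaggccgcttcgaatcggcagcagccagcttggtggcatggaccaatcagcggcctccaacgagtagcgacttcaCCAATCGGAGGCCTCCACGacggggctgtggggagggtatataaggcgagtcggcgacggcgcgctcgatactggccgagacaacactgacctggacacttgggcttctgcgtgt
Pdia6, chr12:17266339-17266638, plus strand: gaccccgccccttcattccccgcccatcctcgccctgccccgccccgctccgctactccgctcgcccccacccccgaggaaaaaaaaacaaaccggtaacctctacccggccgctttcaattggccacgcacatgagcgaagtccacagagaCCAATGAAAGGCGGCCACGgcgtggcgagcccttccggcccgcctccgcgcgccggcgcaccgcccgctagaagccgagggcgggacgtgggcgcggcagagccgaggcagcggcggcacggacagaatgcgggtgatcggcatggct
Each window held 1 such element, which began 65 bases before the start in Hspa5 and 98 bases before it in Pdia6. The element was found in 6 of 14 genes of this compartment with a window, in none of the other 47 chaperone genes with a window, and in 0.137% of all 27025 genes in the table. Its 6 carriers were Hspa5, Pdia6, Dnajc3, Hsp90b1, Canx and Calr, of which the first 3 were called higher, Hsp90b1 and Canx did not pass and Calr was not tested. Dnajb9 rose without a match to these letters in its window.

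Other genes of folding and degradation in the endoplasmic reticulum rose as well. In a separate list of 28 symbols, 22 were on the array and 19 were tested, of which 7 rose and none fell (median 0.18), against 13.1% and 9.50% of all genes. Sel1l, a subunit of the ligase complex that removes misfolded proteins, read 566, 578 and 545 in Rb null livers, against 303, 447 and 318 in wild type livers (0.61 ± 0.13, adjusted p = 0.013). Ero1a, the oxidase that recharges disulfide isomerases, read 2766, 2679 and 2851 in Rb null livers, against 1777, 1817 and 1834 in wild type livers (0.60 ± 0.05, adjusted p = 0.0003). Herpud1, a stress-inducible membrane protein of the same degradation pathway, read 1227, 991 and 949 in Rb null livers, against 746, 719.6 and 677 in wild type livers (0.53 ± 0.10, adjusted p = 0.0084). The groups did not overlap in any of these. The others called were Creld2, the collagen chaperone gene Serpinh1, and Xbp1 and Ddit3, which encode transcription factors of the unfolded protein response, with log2 fold changes from 0.27 to 0.47. The count stayed at 6 or 7 higher under each other scaling, but after median scaling 2 members passed as lower. Without Rb null embryo 1 the counts were 6 higher and 1 lower. Over the left-out embryos the count ran from 5 higher without Rb null embryo 2 to 8 higher without Rb null embryo 3. Markers of other cell types differed between these livers as well. The summed signal of 7 mesenchyme markers ran from 11915 to 13558 in Rb null livers and from 9519 to 9960 in wild type livers, and 4 of 7 rose. Summed endothelial markers ran from 1954 to 2032 in Rb null livers and from 1492 to 1666 in wild type livers, with 2 of 4 tested higher. Summed macrophage markers ran from 2934 to 3240 in Rb null livers and from 2499 to 2682 in wild type livers. Here 2 of 6 tested rose. Summed megakaryocyte markers ran from 1610 to 1948 in Rb null livers and from 1116 to 1219 in wild type livers. Of 2 tested, only Vwf rose, at 910 ± 45.0 in Rb null livers, against 461 ± 23.1 in wild type livers (adjusted p = 0.00023). Gp9 overlapped between genotypes and did not pass (0.37, adjusted p = 0.089), and Pf4 overlapped too. The separation of this sum thus rested on Vwf, and no rise of megakaryocyte markers as a set can be read from it. The defining endothelial gene Pecam1 and the defining megakaryocyte gene Pf4 were below the filter in both genotypes. The part of these cells in the rise of the endoplasmic reticulum genes was not tested.

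The lower calls lay mainly among bright genes, where calls in general leaned lower. The tested genes were put into 4 bins of equal size by mean signal. In the brightest bin, with mean signals above 1296, 24.6% of all 1319 genes fell and 8.57% rose, with a median of -0.09. Of the 25 chaperone genes in that bin 9 fell and 2 rose, with a median of -0.17. In the 3 dimmer bins together, 2 of 37 chaperone genes fell and 5 rose. From the dimmest of these bins upward, 0.835%, 3.64% and 8.95% of all genes fell, and 13.3%, 14.8% and 15.7% rose. The chaperonin calls all came from the brightest bin, as did Hspa8, Hsph1, Dnaja1, Dnajb6, Dnajc2 and Dnajc8. Hspa5 and Pdia6, the 2 higher genes of that bin, rose where lower calls were the more frequent ones. Red cell markers were among the bright genes too: the summed signal of 6 erythroblast markers ran from 42248 to 47516 in Rb null livers and from 54832 to 58976 in wild type livers, and 5 of 6 fell. Summed hepatoblast markers ran from 36441 to 38956 in Rb null livers and from 39144 to 42555 in wild type livers, with 1 of 8 higher and 2 lower, although the median log2 fold change of the 8 was 0.13. The part of the cell types in the fall of the cytosolic chaperones was not tested.

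**Figure D5:**
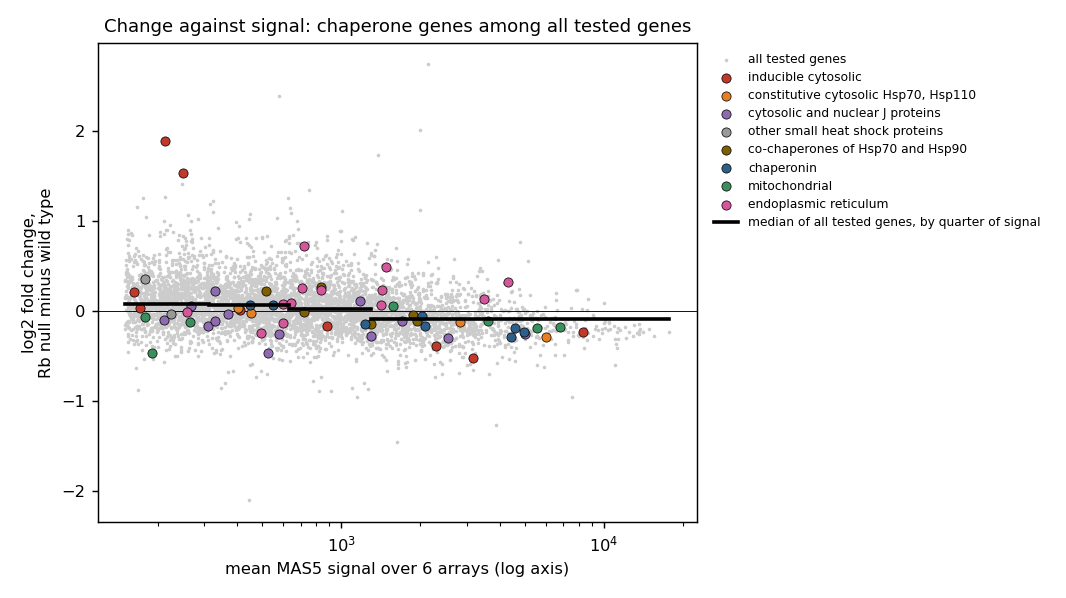
Log2 fold change (Rb null minus wild type) against mean MAS5 signal over the 6 arrays, on a log axis, for all tested genes (grey) and the chaperone genes by class; black lines are medians of all tested genes in 4 bins of signal. The black line falls from 0.08 in the dimmest to -0.09 in the brightest bin, and Hspa1a, Hspa1b, Hspa5 and Pdia6 stand above it.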

How the data were processed

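Total RNA of 3 Rb null and 3 wild type fetal livers was measured on 6 arrays, 1 per embryo, from 6 ug of RNA labelled with biotin, per the labels' protocols. The authors deposited linear MAS5 signal intensities, per the submitters' processing notes, with a version and scaling target not given in the sources used here. Probe sets were named by the platform annotation, where 10833 had 1 symbol, 396 several and 1193 none, while 66 others were array controls and were not tested. A two-sided test in limma 3.58.1 in R 4.3.3, with an intensity trend, compared log2 of signal plus 50.02 (0.1 of the trimmed mean) over the 6793 probe sets with a mean above 150.1 (0.3 of the trimmed mean), with Benjamini-Hochberg adjustment over them. The procedure was tested on simulated arrays. All tested chaperone genes are counted. Full values are given for a set of main chaperones, for the called genes of the inducible class, for at most 4 called genes in each direction of every other class, those with the largest change, and for up to 3 called genes of each other list. Tested chaperone genes outside this rule are named at least with their log2 fold change. Chaperone genes, classes and lists were chosen with earlier results of these data known, and no set test was made. Alternatives were other scalings, offsets and filters, other variance models, the replicate number as a block, averaged probe sets per gene, excluding probe sets whose name has a suffix letter, and dropping each embryo. The number of arrays limits the precision. Promoter windows came from RefSeq, build GRCm38.p6, and 61 of the 70 chaperone genes had one.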

Additional observations from a re-analysis of the deposited data

How the results depend on the processing

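The 18 called chaperone genes were recomputed under 18 alternatives, and 8 of them (Hspa1a, Hspa1b, Hspa5, Pdia6, Hsph1, Dnaja1, Cct7 and Dnajc2) kept their direction and their call under every alternative in which they were tested. Hspa1a and Hspa1b were too dim for the stricter filter, and they passed the main filter only through their Rb null values. No called gene changed direction. Median scaling gave 4 higher and 21 lower chaperone genes in place of 7 and 11. The median signals were 203, 198 and 197 on the Rb null arrays, against 182, 186 and 176 on the wild type arrays. Dividing by the medians therefore lowered Rb null values relative to wild type values. Why the medians differed was not tested. Leaving out each embryo gave 4 to 7 higher and 7 to 10 lower genes, and 10 of the 18 calls were kept whichever embryo was left out. Every other alternative gave counts within 1.5 times those reported. Quantile and cyclic loess normalization ended the calls of Cct4, Cct5, Hspa8 and Dnajc8, which were lower, and of Dnajb9 and Dnajc3, which were higher, and quantile normalization that of Bag6. The replicate block gave 5 higher and 11 lower genes. Same-numbered embryos share only a number in the labels. Their deviations from the group means correlated at -0.062, 0.049 and 0.272 for embryos 1, 2 and 3. The last was the highest of any pair, while Rb null embryo 1 correlated best with wild type embryo 2 (0.223). These values cannot tell whether the embryos were paired, because deviations from a mean of 3 are tied to each other. Signals of the dimmest probe sets cannot be told from background here, which limits the sizes of the Hspa1a and Hspa1b rises.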
